A study of Mus musculus with 4 samples.

Results

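CTCF peaks that just missed each other in B cells and plasmablasts numbered 683 of the 65921 peaks listed on chromosomes 1 to 19. Each of them overlapped no peak of the other cell type, yet had the midpoint of such a peak within 500 bp. They were chosen by these measured positions alone, and each was paired with the nearest midpoint of the other list. The B cell list held 285 of them, which was 0.799% of its 35686 autosomal peaks (exact 95% binomial interval 0.709 to 0.897%). The plasmablast list held 398, which was 1.32% of 30235 (1.19 to 1.45%). For comparison, 67.8% of the autosomal B cell peaks and 80.0% of the autosomal plasmablast peaks had an overlap of 1 bp or more with the other list and are called shared here. These intervals, like all others given, cover counting error only.

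CTCF is a zinc finger protein that binds a long, directional DNA motif and can stop the cohesin complex, so that its sites often become anchors of chromatin loops and borders between domains. In lymphocytes such loops are known to shape the antigen receptor loci and the range of enhancers. Chromatin immunoprecipitation followed by sequencing places a binding site at the summit of a pile of DNA fragments, and neighbouring binding sites can merge into a single summit or appear as separate ones.

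The B cells were the CD43-negative fraction of spleens of C57BL/6 mice aged 6 weeks. The plasmablasts, dividing antibody-secreting descendants of activated B cells, were sorted on CD138 from spleens of C57BL/6 mice of the same age, 3 days after a retro-orbital injection of 50 µg lipopolysaccharide. For either kind of cell there was a single CTCF library and a single input library, and the peaks of both CTCF libraries were analysed. No label says whether animals were pooled, and peak positions cannot check the identity of the sorted cells. There were no replicates, so B cells and plasmablasts were compared without a test. The B cell libraries were sequenced on an older Illumina instrument (Genome Analyzer II) and the plasmablast libraries on a HiSeq 2000, so instrument and cell type cannot be told apart. All B cell peaks were 305 bp wide, and 31085 of the 31086 plasmablast peaks were 179 bp wide, so intervals touch without overlapping at a midpoint distance of 242 bp. The score of a peak is the authors' own value, of unstated unit, with a median of 62.1 in the B cell file and 19.4 in the plasmablast file. Scores were therefore compared within a list, and between lists only as percentiles, where 100 is the highest score of a file. The depth of the libraries is unknown.

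The members fell into 400 pairs of 2 main kinds. In 283 pairs neither peak was shared and each was the nearest of the other list to the other, a reciprocal pair. In 114 pairs an unshared plasmablast peak lay beside a B cell peak that another plasmablast peak overlapped. The remaining 3 pairs held the second neighbour of a peak already paired. Of the adjoining plasmablast peaks, 28.6% (24.2 to 33.4%) thus had a shared partner, whereas 0 of the 285 adjoining B cell peaks had one, which allows a share of up to 1.29%.

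The spacing of peaks inside each list also differed, and its part in this difference was not tested. The closest B cell midpoints lay 549 bp apart and the closest plasmablast midpoints 372 bp apart. With a 500 bp window, an adjoining B cell peak could have a shared partner only if that partner was displaced from the B cell peak overlapping it. Adjoining plasmablast peaks were under no such limit, and the binomial interval above does not allow for it. Neighbouring peaks within 742 bp of each other, the sum of the 500 bp window and the touching distance, numbered 120 in the B cell list and 416 in the plasmablast list. Beyond the window, peaks of both lists faced shared ones. With the nearest midpoint 500 to 700 bp away, 24 unshared B cell and 203 unshared plasmablast peaks faced a shared peak. Between 700 and 1000 bp these numbers were 133 and 131.

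The reciprocal pairs crowded just past the point where intervals stop touching. Their midpoints lay a median of 306 bp apart (quartiles 270 and 355, range 242 to 494), which left a median gap of 64 bp between the intervals. The rule keeps only offsets from 242 to 500 bp, so the range is set by the selection. In 114 of the 283 pairs the gap was 50 bp or less, and in 3 pairs the intervals abutted with a gap of 0. The order of the peaks along the chromosome had no preferred side, with the B cell peak first in 140 of 283.

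**Figure D1:**
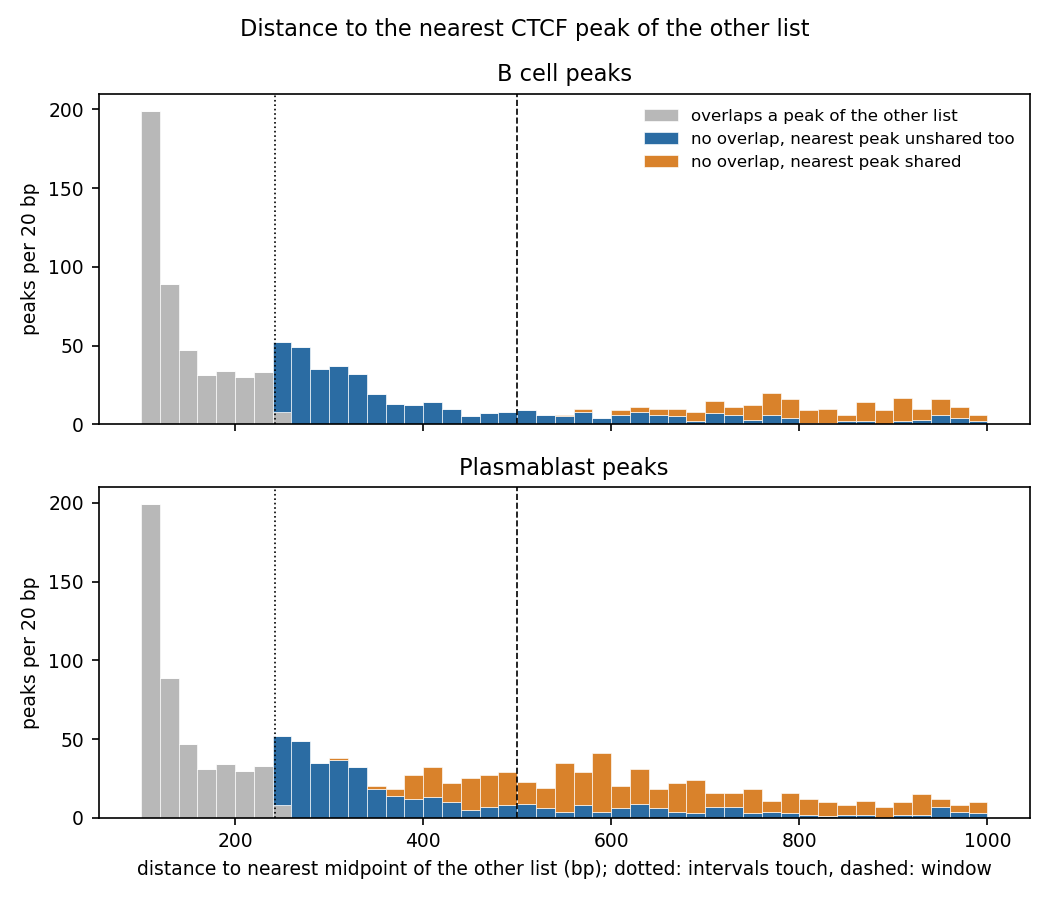
Number of peaks per 20 bp of distance to the nearest midpoint of the other list, from 100 to 1000 bp, for B cell peaks (top) and plasmablast peaks (bottom), coloured by overlap and by whether the nearest peak was itself shared, with lines at 242 bp (dotted) and 500 bp (dashed). Counts level off at 30 to 34 per bin between 160 and 240 bp, reach 52 in the bin from 240 bp, and the bars of plasmablast peaks facing a shared peak rise from 380 bp.

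The number of peaks did not fall evenly with distance. Over all autosomal B cell peaks, the count per 20 bp of distance fell from 13527 below 20 bp to 31 between 160 and 180 bp. It stayed near that level up to 240 bp, where 128 peaks in 80 bp gave 32.0 per 20 bp. Between 240 and 340 bp it was 41.0 per 20 bp, with 205 peaks of which 8 were still shared. From 340 to 420 bp it was 14.5, and from 420 to 500 bp it was 7.5. The plasmablast counts were the same up to 240 bp and nearly so up to 340 bp (41.2 per 20 bp), since most pairs are counted from both sides. Farther out the plasmablast counts held at 24.2 and 25.8 per 20 bp in the same bins, of which 40 and 73 peaks faced a shared B cell peak. Whether a pair marks 1 site placed differently in each list or separate sites was not tested.

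Peaks lay close on either side of both bounds of the rule. At 241 bp, 1 bp short of the lower bound, 5 B cell peaks overlapped their partners, with percentiles of 5.17, 8.55, 13.6, 16.9 and 98.0. Their plasmablast partners lay at the 64.6th, 66.3rd, 75.2nd, 24.1st and 85.5th percentiles in that order. Exactly at 242 bp lay 3 pairs. On chromosome 11 the B cell peak at 86469498 to 86469802 scored 22.2 (16.9th percentile) and the plasmablast peak at 86469319 to 86469497 scored 34.2 (71.0th). On chromosome 12 the B cell peak at 88067308 to 88067612 scored 25.9 (22.5th percentile) and the plasmablast peak at 88067129 to 88067307 scored 6.2 (9.40th). On chromosome 18 the B cell peak at 39297052 to 39297356 scored 77.8 (56.6th percentile) and its partner at 39296873 to 39297051 scored 9.8 (25.5th). In these abutting pairs the plasmablast peak came first along the chromosome each time, and the stronger rank was not always on the same side.

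At the upper bound, the largest offset was 499 bp, on chromosome 18. There a plasmablast peak at 65650055 to 65650233 (score 38.6, 76.0th percentile) lay beside a shared B cell peak at 65649493 to 65649797 (210.2, 88.8th). Among reciprocal pairs the largest was 494 bp, between weak peaks on chromosome 8, the B cell peak at 108734164 to 108734468 (16.7, 6.77th) and the plasmablast peak at 108734721 to 108734899 (4.5, 2.51st). Just outside, at 501 bp, lay 1 unshared B cell peak at the 5.17th percentile and 3 plasmablast peaks at the 29.2nd, 31.1st and 53.7th.

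In rank, the partners of a reciprocal pair differed. The B cell peaks were weak, with a median score of 27.8 (quartiles 18.5 and 47.2), which is the 24.9th percentile (order-statistic 95% interval 21.1 to 28.2). The plasmablast peaks were of middling rank, with a median score of 21.0 (quartiles 9.6 and 35.0), which is the 52.7th percentile (46.5 to 58.7). The plasmablast peak had the higher percentile in 183 of 283 pairs (64.7%, 58.8 to 70.2%), by a median of 17.3 points over all pairs. In 71 pairs it was higher by more than 50 points, and in 8 pairs the B cell peak was. Only 49 pairs had percentiles within 10 points of each other.

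**Figure D2:**
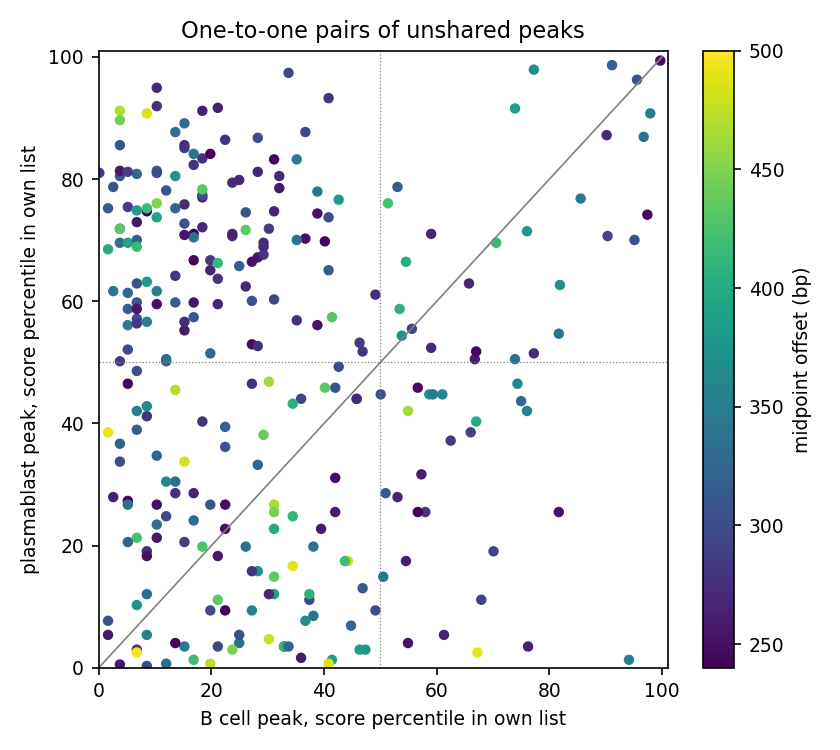
Score percentile of the B cell peak (horizontal) and of the plasmablast peak (vertical) in each of the 283 reciprocal pairs, coloured by midpoint offset in bp. The solid line marks equal percentiles and the dotted lines the 50th. The upper left part, where only the plasmablast peak is above the 50th percentile, holds the most points of the 4 parts (124 of 283), and 4 points lie above the 90th in both lists.

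By the 50th percentile of each list, the plasmablast peak alone was above it in 124 pairs, neither peak in 103, both in 29 and the B cell peak alone in 27. At shared sites with midpoints within 100 bp, the plasmablast percentile was the higher one in 33.0% of 23725 (32.4 to 33.6%). At the 461 shared sites with midpoints over 100 bp apart it was 64.0% (59.4 to 68.4%), close to the value of the reciprocal pairs. Percentiles are ranks within lists of different make-up, with 67.8% of autosomal B cell and 80.0% of autosomal plasmablast peaks shared. How far this make-up shapes which percentile is higher was not tested. Ranks of the partners were hardly related, with a Spearman correlation across the 283 pairs of -0.085. It was 0.22 across the 461 widely offset shared sites and 0.70 across all 24186 shared sites. These are descriptions across sites that share 2 libraries, and the unshared peaks span lower ranks than the shared ones.

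Across bins of offset, the B cell median percentile had no steady order and the plasmablast median was lowest in the widest bin. In the 72 reciprocal pairs with offsets of 242 to 270 bp, the median percentiles were 27.2 in B cells and 57.4 in plasmablasts. In the 56 pairs from 271 to 300 bp they were 23.7 and 56.8. In the 82 pairs from 301 to 350 bp they were 16.9 and 55.4, and in the 73 pairs from 351 to 500 bp they were 31.1 and 42.8. The plasmablast median of the widest bin had an interval of 25.5 to 54.4, which overlaps that of the narrowest (44.0 to 66.7). Overlap of separate intervals does not exclude a difference, and the bins were not compared by a test.

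The strongest pair of all ranked at the top of both lists. On chromosome 12, which carries the immunoglobulin heavy chain locus, the B cell peak at 114460284 to 114460588 (mm9, 1-based, as for every position here) scored 354.7, rank 119 of 36381. The plasmablast peak at 114460597 to 114460775 scored 91.0, rank 188 of 31086, and only 8 bp separated the intervals. Which genes lie near this pair was not determined. No other pair held both peaks above the 98th percentile.

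A second strong reciprocal pair was on chromosome 11, with the B cell peak at 11688763 to 11689067 (score 253.8, 95.5th percentile) and the plasmablast peak at 11688522 to 11688700 (68.9, 96.3rd), 304 bp apart. Elsewhere on chromosome 11, the B cell peak at 11361903 to 11362207 (277.9, 97.9th) lay 349 bp from the plasmablast peak at 11361617 to 11361795 (56.4, 90.7th). The reciprocal pair on chromosome 6 joined the B cell peak at 83725728 to 83726032 (223.2, 91.1st) and the plasmablast peak at 83726111 to 83726289 (80.5, 98.6th) at 320 bp. These 3 and the chromosome 12 pair were the 4 reciprocal pairs with both peaks above the 90th percentile, and 8 pairs beside a shared site had the same. On chromosome 5 the B cell peak at 152489485 to 152489789 (217.7, 90.2nd) lay 269 bp from the plasmablast peak at 152489279 to 152489457 (50.9, 87.2nd). The third highest scoring adjoining B cell peak was on chromosome 19 at 7054202 to 7054506 (271.4, 97.4th), and 5 bp separated it from a plasmablast peak at 7054018 to 7054196 of lower rank (36.9, 74.2nd).

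Few strong peaks were unshared, and among these few the adjoining kind took a larger share than among unshared peaks of any rank, in both lists. Among B cell peaks above the 90th percentile, 12 autosomal ones were unshared, and 10 of them had a plasmablast midpoint within 500 bp (83.3%, 51.6 to 97.9%), against 2.48% of all 11500 unshared autosomal B cell peaks. Among plasmablast peaks above the 90th percentile, 99 autosomal ones were unshared, and 23 of them had a B cell midpoint that close (23.2%, 15.3 to 32.8%), against 6.58% of all 6049. Among strong peaks as a whole the adjoining kind was rare, with 10 of the 3663 autosomal B cell peaks above the 90th percentile. Of all adjoining B cell peaks, 3.51% were above it, against 10.3% of all autosomal B cell peaks. Of shared B cell peaks with midpoints within 100 bp, 15.3% were. In plasmablasts 5.78% of adjoining peaks were, against 12.6% of shared ones with midpoints within 100 bp. It was 3.47% for widely offset shared plasmablast peaks and 1.35% for unshared ones with no B cell midpoint within 500 bp. The 12.6% belongs to the class with the largest share, not to all autosomal plasmablast peaks. These shares have no replicate check.

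The most unequal pairs went both ways. On chromosome 11 the B cell peak at 105945403 to 105945707 scored 242.7 (94.1st percentile), while the plasmablast peak 355 bp away, at 105945821 to 105945999, scored 3.9 (1.31st). Both other leading cases of B cell excess involved a weak plasmablast peak beside a shared site. On chromosome 2 the B cell peak at 11585621 to 11585925 (251.9, 95.3rd) was overlapped by a plasmablast peak scoring 36.9 (74.2nd). The adjoining plasmablast peak at 11586168 to 11586346 scored 7.1 (14th), so only the adjoining peak was weak there. On chromosome 15 the B cell peak at 76469996 to 76470300 (236.2, 93.1st) was overlapped by a plasmablast peak scoring 7.7 (16.7th). The adjoining one at 76470434 to 76470612 scored 7.5 (15.8th). At the chromosome 15 site a B cell peak of high rank thus had only weak plasmablast peaks on and beside it.

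Excess on the plasmablast side was led by reciprocal pairs. The plasmablast peak on chromosome 1 at 57450983 to 57451161 scored 57.1 (91.2nd percentile), and its B cell partner at 57451390 to 57451694 scored 14.8 (3.77th). On chromosome 17 the plasmablast peak at 78998074 to 78998252 scored 54.7 (89.6th) and the B cell peak at 78997566 to 78997870 again 14.8. On chromosome 18 the plasmablast peak at 47107114 to 47107292 scored 64.8 (94.9th) and the B cell peak at 47107321 to 47107625 scored 18.5 (10.3rd). Their offsets were 470, 445 and 270 bp.

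The 114 plasmablast peaks beside a shared site formed the other kind of pair. Such a site had a B cell peak with 1 plasmablast peak on it and another plasmablast peak next to it. The B cell peaks were strong, with a median percentile of 79.8 (73.7 to 84.5), and 86.8% of them were above the 50th. They are shared by definition, and shared peaks rank high in general. Shared B cell peaks with midpoints within 100 bp had a median percentile of 66.5, and 71.0% scored at or above the list median. The overlapping plasmablast peaks had a median percentile of 67.7 (61.4 to 73.4) and the adjoining ones 41.8 (34.7 to 55.0). All 3 peaks were above the 50th percentile at 47 of the 114 sites.

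Within the plasmablast list the peak on the B cell site was usually the stronger of both. It outscored the adjoining peak at 85 of 114 sites (74.6%, 65.6 to 82.2%), with 1 tie. The adjoining peak had a median of 0.65 times the score of the overlapping one (quartiles 0.40 and 1.00), with extremes of 0.11 and 4.33. Among all neighbouring plasmablast peaks within 742 bp of each other of which exactly 1 was shared, the shared one was stronger in 74.7% of 332. These 332 include the 114 sites, and in the other 218 the share was 74.8% (68.5 to 80.4%).

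**Figure D3:**
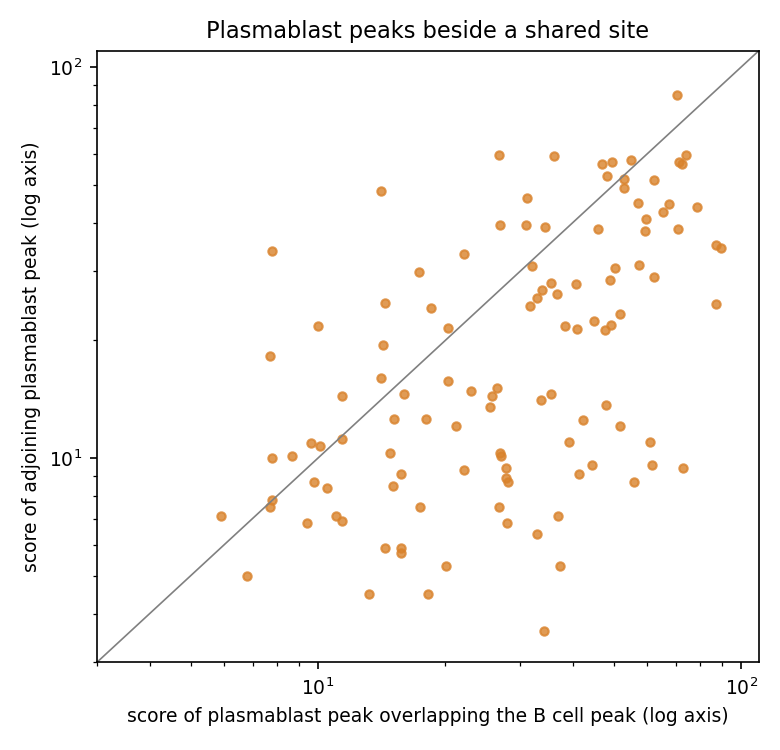
Scores within the plasmablast list at the 114 sites where an unshared plasmablast peak lies beside a shared site, with the score of the peak overlapping the B cell peak on the horizontal log axis and the score of the adjoining peak on the vertical log axis. The line marks equal scores, and 85 of the 114 points lie below it.

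The midpoint of the B cell peak was a median of 12 bp from the overlapping plasmablast peak (quartiles 6 and 28) and 442 bp from the adjoining one (range 314 to 499). The rule requires that the B cell peak overlap the former and not the latter, so these distances are a description of the selection. The overlapping peak was displaced toward the adjoining one at 49 sites and away from it at 64, with a median displacement of 3 bp away (95% interval from 7 bp away to 2 bp toward).

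The strongest of these sites had high ranks throughout. On chromosome 15 the adjoining plasmablast peak at 97494202 to 97494380 scored 84.7 (99.0th percentile), more than the 70.5 of the plasmablast peak at 97494669 to 97494847. The B cell peak there, at 97494552 to 97494856, scored 274.2 (97.6th). On chromosome 4 the adjoining peak at 132379601 to 132379779 scored 59.5 (92.4th), below the 74.2 of its neighbour at 132380007 to 132380185, beside a B cell peak at 132379960 to 132380264 with a score of 310.3 (99.2nd). On chromosome 9 the adjoining peak at 41016022 to 41016200 also scored 59.5, but its neighbour at 41015551 to 41015729 scored 26.7 (61.4th), under a B cell peak at 41015514 to 41015818 with a score of 243.6 (94.2nd). At the chromosome 15 and 9 sites, then, the stronger plasmablast peak was the one without a B cell peak on it.

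By median score, adjoining peaks lay close to isolated ones in the B cell list but not in the plasmablast list. Their median percentile in the B cell list was 23.7 (19.8 to 28.2), against 19.8 (19.8 to 21.1) for the 11215 unshared B cell peaks with no plasmablast midpoint within 500 bp, called isolated here. In the plasmablast list it was 51.8 (44.8 to 56.4), against 26.1 (25.5 to 27.3) for 5651 isolated peaks. The widely offset shared sites had medians of 30.2 in B cells and 45.9 in plasmablasts (40.3 to 49.6). At or above the median score of the file were 19.6% of the adjoining B cell peaks (15.2 to 24.7%), 9.26% of the isolated ones and 50.5% of all autosomal ones. Among widely offset shared B cell peaks it was 14.5% (11.4 to 18.1%). In plasmablasts the shares of adjoining, isolated and all autosomal peaks were 52.3% (47.2 to 57.3%), 23.3% and 50.6%. The share of adjoining plasmablast peaks above the median was thus at the background of its list, but the top of the list was thinner, with 5.78% of them (3.70 to 8.55%) in the highest decile. The highest decile held 3.47% of widely offset shared and 1.35% of isolated plasmablast peaks. In B cells it held 3.51% of adjoining, 3.69% of widely offset shared and 0.018% of isolated peaks. The adjoining plasmablast class also pools both kinds of pair, whose medians were 52.8 with an unshared partner (46.5 to 58.7) and 41.8 with a shared one.

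**Figure D4:**
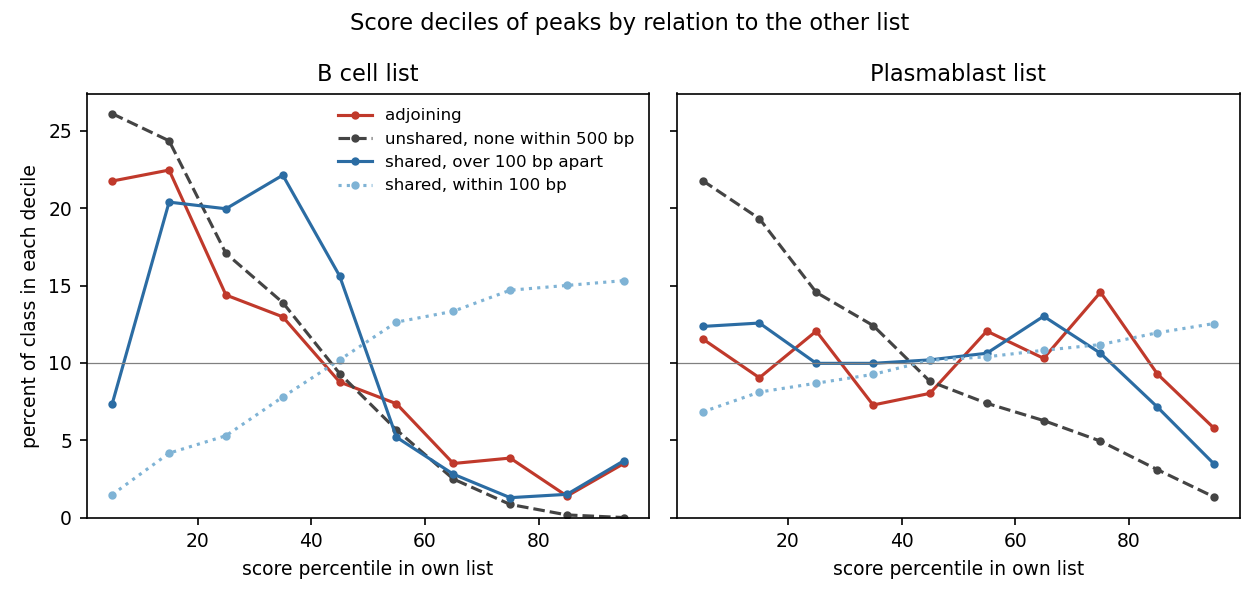
Percent of each class of autosomal peaks falling in each decile of its list by score, for B cells (left) and plasmablasts (right). The grey line marks 10%. In plasmablasts the adjoining class (red) lies between 5.78 and 14.6% in every decile, with 11.6% in the lowest decile and 5.78% in the highest, while in B cells it has 21.8% in the lowest and 3.51% in the highest.

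The count of shared sites within 500 kb had a median of 13 around adjoining B cell peaks (12 to 15), against 19 around isolated B cell peaks (18 to 19) and 19 around all autosomal ones. Around the 284 plasmablast peaks with an unshared partner it was also 13 (12 to 15), equal to the 13 around isolated plasmablast peaks (13 to 14). Around the 114 beside a shared site it was 23.5 (21 to 28), against 18 around all autosomal plasmablast peaks. Since these kinds were split by whether the partner is itself a shared site, the direction of the difference between them is partly set by the split. The adjoining B cell peaks had a peak of their own list within 2 kb in 10.9% of cases (7.51 to 15.1%), against 10.3% of all autosomal B cell peaks. For plasmablast peaks with an unshared partner it was 10.2% (6.95 to 14.3%), against 12.2%.

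Places with 3 or more adjoining peaks within 10 kb numbered 5. On chromosome 3 the plasmablast peak at 67156393 to 67156571 (score 53.8, 89.1st percentile) was flanked on both sides by weak B cell peaks, 332 and 347 bp away, at the 15.2nd and 10.3rd percentiles. On chromosome 1 the plasmablast peak at 88515129 to 88515307 (20.3, 51.5th) had B cell peaks on both sides at 401 and 327 bp, at the 8.55th and 19.8th percentiles. The reverse was seen on chromosome 6, where the B cell peak at 72970476 to 72970780 (25, 21.1st) had plasmablast peaks at 372 and 295 bp, at the 73.5th and 3.49th percentiles. On chromosome 5, reciprocal pairs followed each other 6373 bp apart, with B cell peaks at 38482610 to 38482914 (30.6) and 38488983 to 38489287 (13). On chromosome 17 the B cell peak at 3083243 to 3083547 (68.5, 53.0th) and its plasmablast partner (10.5, 28.0th) lay 1347 bp before a shared B cell peak that had an adjoining plasmablast peak of its own (11.2, 30.5th).

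By chromosome, adjoining peaks made up between 0.468 and 1.34% of the B cell peaks and between 0.847 and 1.97% of the plasmablast peaks on 18 of the 19 autosomes. Chromosome 18 lay above these ranges, with 20 of 989 B cell peaks (2.02%, 1.24 to 3.11%) and 25 of 855 plasmablast peaks (2.92%, 1.90 to 4.29%). The other 18 autosomes together gave 0.764% (0.675 to 0.861%) and 1.27% (1.14 to 1.40%). Relative to unshared peaks the values were 6.15% (3.80 to 9.34%) against 2.37% in B cells, and 13.1% (8.65 to 18.7%) against 6.37% in plasmablasts, where chromosome 19 had a similar 12.1%. Chromosome 18 was picked out after the values were seen, as the highest of 19, and no test was made. It had 11.5 B cell and 9.79 plasmablast peaks per Mb between its first and last peak, inside the ranges of the other autosomes (10.3 to 24.95 and 9.32 to 20.5). Its longest stretches without a peak, 4.35 and 4.30 Mb, were also inside theirs. Whether the lists used here are complete on chromosome 18 is not known beyond these values, and missing peaks would alter its shares.

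**Figure D5:**
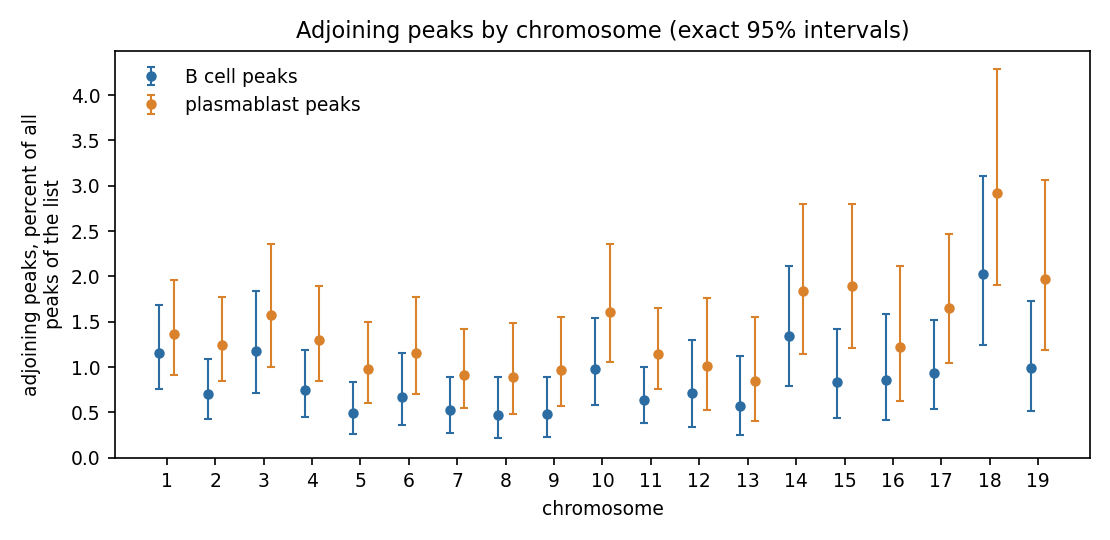
Adjoining peaks as a percent of all peaks of the list on each of the 19 autosomes, for B cells (blue) and plasmablasts (orange), with exact 95% binomial intervals that cover counting error only. Chromosome 18 has the highest point in both lists, 2.02% and 2.92%.

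The reciprocal pairs of chromosome 18 were not otherwise set apart in offset. Their median offset was 309 bp (269 to 350) against 306 bp on the other autosomes, and their B cell peaks had a median percentile of 24.3 against 24.9. Their plasmablast peaks had a median of 70.3 (45.5 to 79.4) against 51.8 (45.9 to 56.9). The 20 pairs were spread over 7 windows of 10 Mb, with no neighbours closer than 242028 bp. Shared sites of chromosome 18 had the same median offset of 17 bp as all shared sites.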

How the data were processed

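Peaks of 1 CTCF library per cell type were analysed, and the input libraries were not analysed here. The aligner Bowtie, the peak finder HOMER and mouse build mm9 are named in the submitters' processing notes. Not given in the sources used here: versions, thresholds, pooling and the role of the input. Column 5 of the deposited files holds a score of unstated unit, and depth is unknown. Start positions were taken as 0-based and raised by 1. Percentiles are ranks of the score within the whole file, with ties averaged. An overlap of 1 bp made a peak shared, which bedtools 2.31.1 counted identically. Adjoining peaks follow the 500 bp rule on chromosomes 1 to 19, with ties given to the lower position. The rule finding and pairing was tested on simulated data with known offsets and at most 1 plasmablast peak planted per B cell peak. Shared partners and second neighbours did not occur there, so their handling was not tested.

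Shares have exact (Clopper-Pearson) and medians order-statistic 95% intervals. With 1 library per cell type, no test between cell types was made. The members, classes and comparisons were chosen with earlier results of these data known. Named pairs are the 5 with the highest lower percentile (among all pairs and among reciprocal pairs), the 3 highest scoring of each list, the 3 most unequal each way, those at the bounds and places with 3 or more members within 10 kb. No mm9 genome or annotation was used, so no gene, motif or sequence is given. Alternatives were other windows, widths, overlap rules, stricter lists, chromosome X, reciprocal pairs alone and, chosen after seeing the data, chromosome 18 left out. Python 3.11.15, numpy 2.4.6, pandas 2.3.3, scipy 1.17.1 and matplotlib 3.10.9 were used.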

Additional observations from a re-analysis of the deposited data

How the results depend on the processing

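Of 54 alternative values, 29 stayed within the counting interval (or, for numbers of peaks, within 1.5 times) and 25 moved. The rule itself sets the numbers. The B cell number of 285 became 550 with a window of 1000 bp, 147 with plasmablast peaks widened to 305 bp, 936 when 50% of each peak had to overlap, 34 above the median scores and 19 among the 10000 highest peaks. The plasmablast number of 398 became 840, 260, 1049, 81 and 41 under the same settings, and 265 with a window of 400 bp. The share of adjoining B cell peaks with a shared partner stayed at 0 except with the 1000 bp window (28.6%). In plasmablasts this share, 28.6%, became 8.68% at 400 bp, 53.3% at 1000 bp, 44.2% with widened peaks, 10.6% with 50% overlap, 58.0% above the median scores, 53.7% among the 10000 highest, and 0 for reciprocal pairs, which is fixed by their definition. The B cell median percentile moved to 30.2 with 50% overlap, 79.2 above the median scores and 90.3 among the 10000 highest, and the plasmablast median to 41.0 at 1000 bp, 71.5 and 85.7, where the stricter lists hold only high ranks by construction. Adding chromosome X or leaving out chromosome 18 moved no value past these margins. No paired analysis was possible because each cell type has 1 library, and leaving out a replicate was not possible. With unknown depth, an unlisted peak may still be bound.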
